A study of Mus musculus with 192 samples.

Results

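SeV and cGAMP, a pair of ligands that both switch on the interferon response, were compared given together and given singly in mouse bone marrow-derived dendritic cells. The members are the 3 libraries of SeV+cGAMP, the 3 of SeV alone and the 3 of cGAMP alone, chosen by those labels: 9 libraries of a series with 3 in each of 64 groups. The question was which genes the pair held above or below both single ligands. The whole series crossed 7 ligands of pattern recognition receptors (PAM, LPS, HMW, Zymosan, SeV, cGAMP and CpGB) as singles, pairs and triplets.

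The cells of every group came from female C57BL/6J mice aged 6 to 8 weeks. Their bone marrow was grown in 15 ng/mL GM-CSF, a growth factor that yields dendritic cells mixed with macrophage-like cells, and 100000 cells a well then received the ligands for 6 hours. SeV alone, 3',3'-cGAMP alone, both together, and Ctrl (no ligand named) are the groups described here, and no genotype or allele differed between them. Doses are not given in the sources used here, so every comparison of SeV with cGAMP is between the amounts that were used and not between matched doses. The labels do not say whether the 3 libraries of a group came from separate mice or cultures, so p-values measure the spread between libraries, which may be technical.

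As background, SeV stands for Sendai virus in this field, an RNA virus whose products are sensed in the cytosol by RIG-I-like receptors, which signal through the adaptor MAVS. Cyclic GMP-AMP (cGAMP) is a cyclic dinucleotide that binds STING, the adaptor of the cytosolic DNA-sensing route. Both routes meet at the kinases TBK1 and IKKε and at the transcription factors IRF3 and NF-kB. They switch on Ifnb1, which encodes interferon beta, and secreted interferon then turns on antiviral genes such as the Ifit and Mx families through a receptor and STAT factors. Dendritic cells that take this path also make chemokines, which call in other immune cells, and the costimulatory proteins that T cells need.

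Totals of the 9 libraries ran from 98864 to 201825 counts of unique molecular identifiers (UMIs, tags of single cDNA molecules), and those of Ctrl were lower. Levels are given as CPM (counts-per-million), a gene's UMIs relative to the library's total after scaling by TMM, a library-size correction, and a gene was called at an adjusted p under 0.05 after Benjamini-Hochberg adjustment over 4720 genes (quasi-likelihood test of edgeR). Dendritic cell markers summed to between 6029 and 7235 CPM per library in SeV, cGAMP and the pair, with 8 or 9 of 9 detected in each group and Flt3 at 0 in cGAMP. Macrophage markers summed to 3335 to 3633 CPM with SeV, 3017 to 3112 with cGAMP and 2558 to 3225 with the pair, and 8 of 9 were detected in each group. Neutrophil markers summed to 546 to 853 CPM. The part of these differences in marker sums in the results was not tested. Markers of B, T and erythroid cells were at or near 0, and Cd79a, Cd3e and Hba-a1 had no UMI in these 9 libraries. Of the 20 tested markers, 0 were called in either comparison (1 at an unadjusted p under 0.05 in each), and DESeq2 called 1 lower against SeV and 0 against cGAMP. In bulk RNA, fewer cells of a type and less RNA per cell cannot be told apart. Replicates 2 and 3 of the pair differed more than any other 2 replicates of these 4 groups, with a chi-square per degree of freedom of 1.502 against 1.105 to 1.272 elsewhere.

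Adding cGAMP to SeV changed 100 genes, and adding SeV to cGAMP changed 2. Against SeV alone, the pair had 84 genes higher and 16 lower, which is 1.78% and 0.339% of the genes tested. Chemokines Ccl3, Ccl4 and Ccl5, the cytokine gene Tnf, the costimulatory gene Cd86 and the interferon-response gene Oasl1 were among those that rose. Against cGAMP alone, 2 genes were higher, or 0.0424%, and 0 were lower, or 0%. At an unadjusted p under 0.05 there were 152 higher and 122 lower, and DESeq2 called 0 in each direction. The 2 higher genes became 0 without cGAMP replicates 2 or 3 or replicates 1 or 2 of the pair, and 1 without cGAMP replicate 1 or replicate 3 of the pair. A fold of at least 2 was passed by 64 of the 100 genes against SeV and by 1 against cGAMP. The count of higher genes against SeV was 54 without SeV replicate 3 and 55 without replicate 2 of the pair, and that of lower genes fell to between 5 and 11 when any 1 library was left out. Scaling by library size alone, which moved the median of all genes from 0.01 to -0.08 (log2), gave 65 higher and 31 lower, so 67.7% in place of 84% of the calls were rises.

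**Figure D1:**
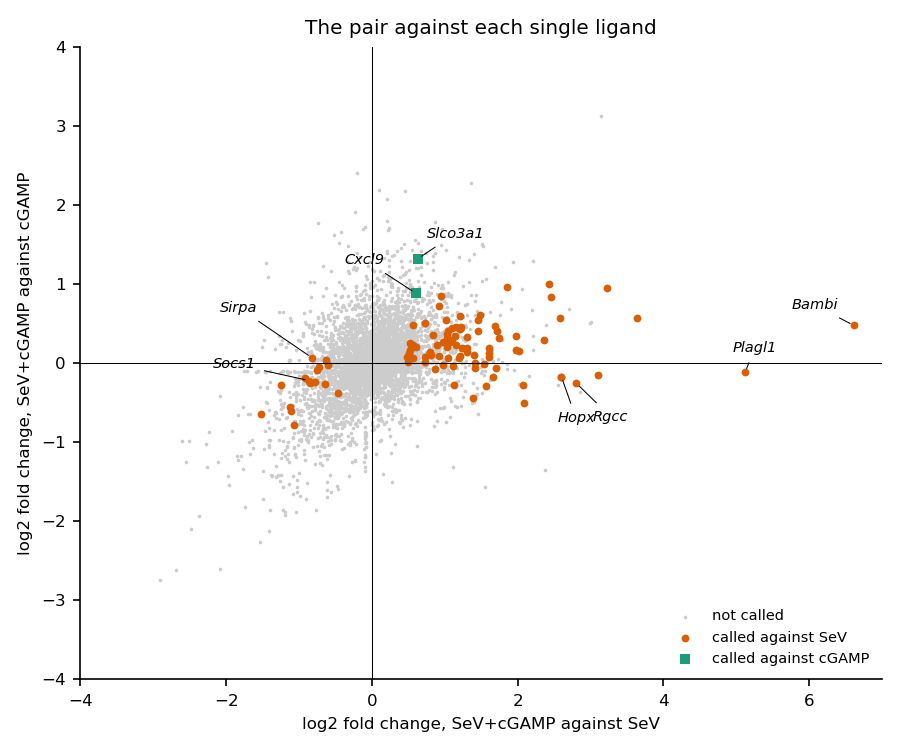
Each point is a gene whose highest group mean reached 20 CPM, placed by its log2 fold change of SeV+cGAMP against SeV (x axis) and against cGAMP (y axis), both from the edgeR fit. Genes called against SeV (orange) were chosen by their x values, whose medians are 1.21 for rises and -0.84 for falls. Their y values have medians of 0.20 and -0.24, and 2 genes were called against cGAMP (green squares). The same pair libraries enter both axes, so this choice also pulls the y values toward the sign of x.

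The chemokine list held 17 tested genes, of which 4 rose against SeV (Ccl3, Ccl4, Ccl5 and Ccl22) and 0 fell, with a median log2 fold change of 0.39 beside 0.01 over all genes. Ccl4, an attractant of T cells, NK cells and monocytes, stood at 3383, 3035 and 2964 CPM in the SeV libraries and at 9133, 8981 and 9421 in those of cGAMP. The pair gave 8758, 8775 and 9742 CPM. Every pair library was thus above every SeV library and overlapped those of cGAMP. The pair was 2.92-fold above SeV (log2 1.54, SE 0.16, adjusted p = 2.31e-15 by edgeR) and 0.991 times cGAMP, where the 95% interval of the log2 difference ran from -0.31 to 0.28.

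Ccl5 (chromosome 11, 83525778 to 83530518, RefSeq GRCm38.p6), which attracts T cells and eosinophils, stood at 5963, 5105 and 4915 CPM with SeV, 14130, 12210 and 12870 with cGAMP and 14670, 12960 and 14500 with the pair. The pair and cGAMP overlapped, and SeV was apart from both: against SeV the pair was 2.64-fold higher (adjusted p = 4.255e-15, edgeR), and against cGAMP the interval ran from -0.17 to 0.38 log2 units. Ccl3, a monocyte attractant, had 1104 ± 90.7 CPM with SeV, 2484 ± 299 with cGAMP and 2714 ± 101 with the pair (SD, n = 3 each), a 2.48-fold rise over SeV (adjusted p = 3.54e-11, edgeR). Ccl3 and Ccl4 overlap by their RefSeq coordinates (chromosome 11, 83647843 to 83649378 and 83648624 to 83664683), and whether strand was used in counting is not given, so reads from the shared stretch cannot be assigned. Ccl22, which attracts regulatory T cells, rose 2.02-fold against SeV (adjusted p = 0.00628, edgeR). Its pair libraries at 322, 304 and 181 CPM overlapped those of cGAMP at 174, 216 and 147, and its call was lost without SeV replicate 3 (adjusted p = 0.257) and without replicates 1 or 2 of the pair (0.0713 and 0.102). It was lost too with counts thinned, each library drawn down at random to at most 61823 UMIs (edgeR adjusted p = 0.351).

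Cxcl10, which attracts activated T cells, had 7263, 7105 and 6923 CPM with SeV, 10900, 11030 and 11370 with cGAMP and 9930, 10020 and 10920 with the pair. All 3 pair libraries exceeded all 3 SeV libraries, but the difference of 0.54 log2 units (SE 0.16) did not pass the adjustment (adjusted p = 0.0563, edgeR), while cGAMP itself was above SeV (adjusted p = 0.0117). With the replicate number in the fit the pair's adjusted p against SeV was 0.0391, over a range of 1.29e-06 to 0.0391 in the 3 alternatives that called it.

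**Figure D2:**
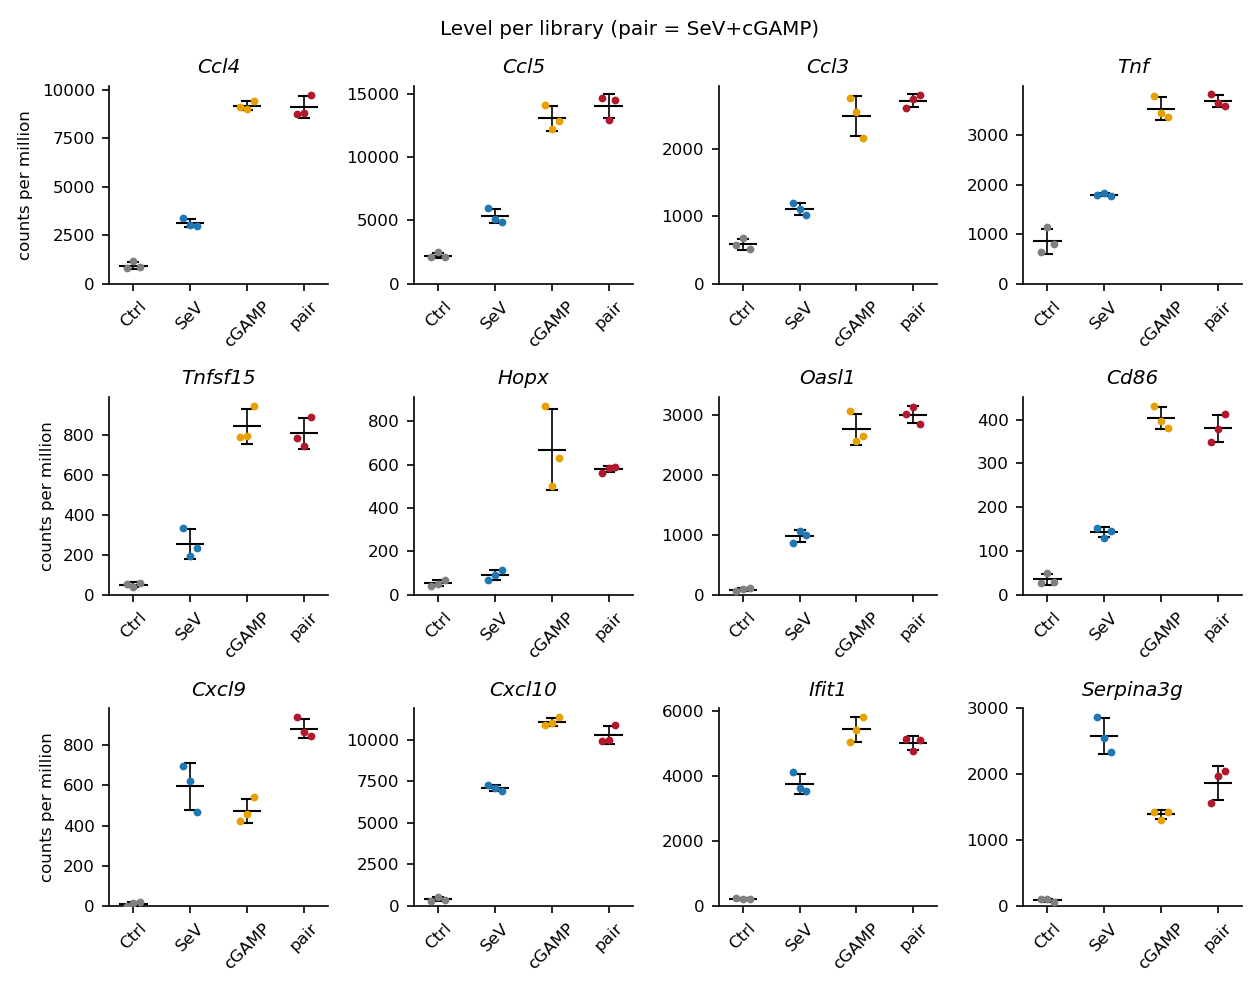
Each panel gives 1 gene's level in CPM (y axis, from 0) in the 3 libraries (points) of Ctrl, SeV, cGAMP and the pair, with the mean (line) and SD (bar). In Ccl4, Ccl5, Ccl3, Tnf, Tnfsf15, Hopx, Oasl1 and Cd86 the pair lies at the level of cGAMP and above SeV, while Cxcl9 is highest in the pair and Serpina3g lies between the single ligands.

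Tumour necrosis factor, encoded by Tnf, stood at 1787, 1824 and 1768 CPM with SeV, 3796, 3447 and 3363 with cGAMP and 3829, 3643 and 3586 with the pair. The pair was 2.05-fold above SeV (log2 1.04, SE 0.17, adjusted p = 7.16e-07, edgeR) and within -0.25 to 0.37 log2 units of cGAMP (95% interval). On the inflammatory list 4 of 13 tested genes rose against SeV (Tnf, Ccl3, Nfkbia and Tnfaip3) and 0 fell, with a median of 0.56. Nfkbia and Tnfaip3 encode brakes on NF-kB, and they rose 1.47-fold (adjusted p = 0.00369) and 1.75-fold (adjusted p = 0.00043). The call of Nfkbia was lost without replicate 1 of the pair (adjusted p = 0.112) and with no filter on low counts (0.0547), and that of Tnfaip3 with counts thinned (0.222). Il6, the interleukin-6 gene, had means of 156.5 ± 22.5, 177 ± 38.9 and 249.5 ± 39.7 CPM with SeV, cGAMP and the pair (SD, n = 3), and neither difference passed (adjusted p = 0.13 and 0.839, edgeR). Against cGAMP, 0 of the 13 were called, 3 were higher at an unadjusted p under 0.05, and DESeq2 called 0.

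NF-kB itself has targets and brakes on a list of 17, of which 2 rose against SeV, the same Nfkbia and Tnfaip3. Tnip3, which encodes another inhibitor of NF-kB, was the 1 that fell. It had 162, 184 and 178 CPM with SeV, 110, 187 and 123 with cGAMP and 80.5, 83.9 and 84.7 with the pair. Every pair library was below every library of both single ligands. The fall was -1.07 log2 units against SeV (SE 0.30, adjusted p = 0.0267, edgeR) and the difference from cGAMP was -0.78 (adjusted p = 0.811). The call against SeV was lost when any of 5 libraries was left out, namely SeV replicates 2 and 3 and all those of the pair, with adjusted p from 0.0752 to 0.139, and also with counts thinned (0.291) or no filter (0.0583).

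Maturation genes of dendritic cells numbered 12, of which Cd86, Ccl22 and Cd274 rose against SeV and 0 fell (median 0.47). Cd86, the B7-2 ligand that costimulates T cells, rose from 153, 130 and 145 CPM with SeV to 349, 377 and 412 with the pair, beside 431, 397 and 381 with cGAMP. That was 2.67-fold over SeV (adjusted p = 3.05e-05, edgeR), and the pair overlapped cGAMP. Cd274, which encodes the checkpoint ligand PD-L1, went from 1308 ± 115 to 1942 ± 13.99 CPM (SD, n = 3), a 1.48-fold rise (adjusted p = 0.00141). Its cGAMP level was 1669 ± 190 CPM, with every library below every pair library, and that difference was not called (adjusted p = 0.849). With counts thinned, the calls of Cd86 and Cd274 against SeV were both lost (edgeR adjusted p = 0.063 each).

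Interferon-response genes rose against SeV in 3 of 15 cases and fell in 0, with a median log2 fold change of 0.23. Oasl1, of the oligoadenylate synthetase family, moved most. It had 870, 1058 and 999 CPM with SeV, 3053, 2565 and 2651 with cGAMP, and 3006, 3135 and 2852 with the pair. SeV was apart from both other groups, and the pair overlapped cGAMP (3.06-fold over SeV, SE 0.19 log2 units, adjusted p = 4.71e-12, edgeR). Isg15, a ubiquitin-like antiviral protein, rose 1.42-fold (adjusted p = 0.042), and Cmpk2, a mitochondrial nucleotide kinase, 1.40-fold (adjusted p = 0.0471). These 2 calls were lost when any single library of SeV or of the pair was left out, with adjusted p from 0.062 to 0.291 for Isg15 and from 0.0719 to 0.213 for Cmpk2, and DESeq2 did not make them (0.0829 and 0.113). RLE size factors, library size alone and thinned counts ended both calls (edgeR adjusted p from 0.0689 to 0.596), and with no filter Isg15 was at 0.0561.

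Against cGAMP, 0 of these 15 interferon-response genes were called (1 lower at an unadjusted p under 0.05, and 0 by DESeq2), and the 95% interval of all 15 lay within a factor of 2. Ifit1, which binds foreign RNA caps, had 3760 ± 314 CPM with SeV, 5445 ± 377 with cGAMP and 5021 ± 205 with the pair (SD, n = 3). The pair's difference from SeV in Ifit1 was not called in the main fit. With the 12 libraries of these groups and Ctrl fitted alone it was (log2 0.39, edgeR adjusted p = 0.000896). Mx1, a GTPase that blocks viral replication, had 5438 ± 488, 5027 ± 410 and 4190 ± 271 CPM. All Mx1 libraries of the pair lay below all those of either single ligand, and neither difference was called (adjusted p = 0.0959 against SeV and 0.831 against cGAMP, edgeR). With library size alone, RLE size factors, DESeq2 or the 12 libraries of these groups and Ctrl fitted alone, the Mx1 difference from SeV was called (adjusted p = 0.00922, 0.0452, 0.0348 and 0.000867), at -0.47, -0.41, -0.41 and -0.41 on the log2 scale.

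Ifnb1, the interferon beta gene upstream of that list, had 249, 261 and 244 CPM with SeV, 266, 210 and 111 with cGAMP and 349, 252 and 378 with the pair, beside a Ctrl mean of 11.97. These are 112, 83 and 154 UMIs in all, and the pair overlapped SeV. Neither difference passed (0.37 log2 units against SeV, adjusted p = 0.601, and 0.77 against cGAMP, adjusted p = 0.707, edgeR). Of the interferon alpha genes on the list of interferon ligands, none passed the filter on low counts. Sensors and adaptors of the RNA route (8 genes) and of the STING route (8 genes) had 0 calls against SeV by edgeR and by DESeq2, with 1 higher in each at an unadjusted p under 0.05.

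Signal transducers of the interferon receptor (15 genes) included 1 call against SeV, a fall in Socs1. Socs1 encodes an inhibitor of JAK kinases that interferon itself induces. It had 459, 337 and 352 CPM with SeV, 220, 234 and 264 with cGAMP and 206, 204 and 209 with the pair. All SeV libraries were above all others, and the pair was 0.55 times SeV (adjusted p = 0.00851, edgeR). The call was lost without SeV replicate 1 (adjusted p = 0.117) and without replicate 2 of the pair (0.0754), and with counts thinned (0.0607).

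**Figure D3:**
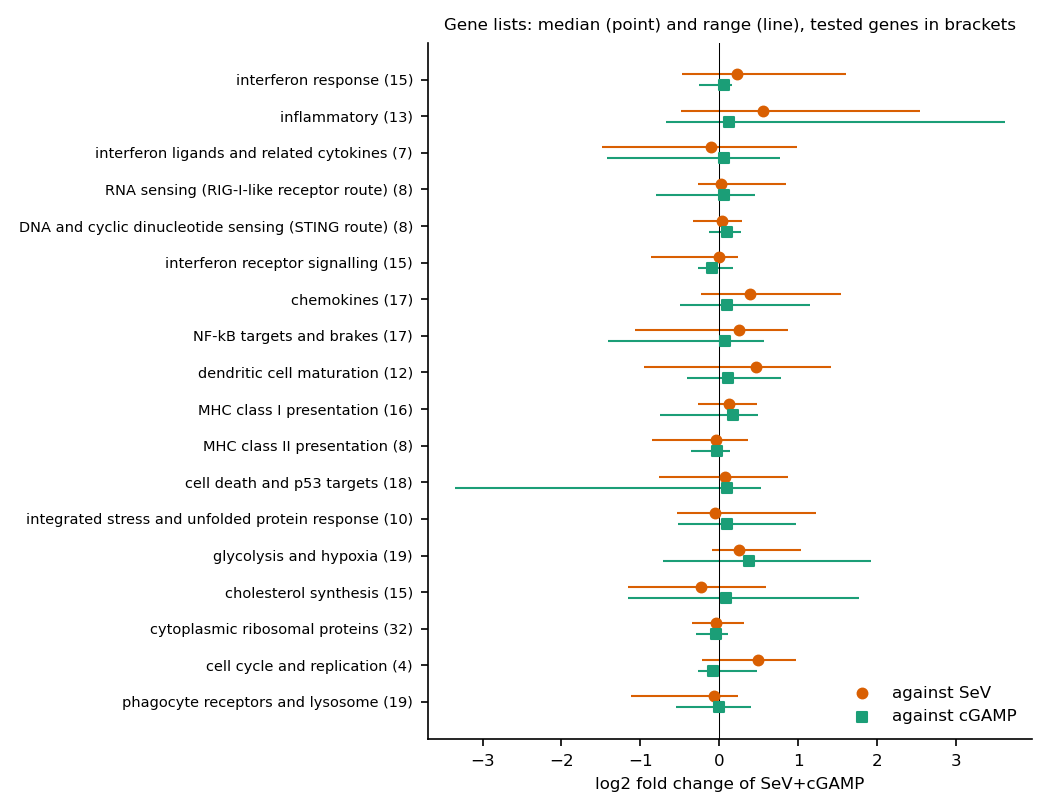
For each gene list, the median (point) and the lowest to highest gene (line) of the log2 fold change of SeV+cGAMP against SeV (orange circles) and against cGAMP (green squares) are shown on the x axis, with the number of tested genes in brackets. Medians against SeV reach 0.56 for the inflammatory list, and the interferon-response genes span -0.26 to 0.16 against cGAMP.

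Other lists held few calls. Hk2, hexokinase, the first enzyme of glycolysis, rose 2.06-fold against SeV (adjusted p = 0.000735), Pcna, a DNA replication clamp, 1.96-fold (adjusted p = 2.94e-05), and Ppp1r15a, which reverses the stress-induced block of translation, 2.335-fold (adjusted p = 0.0198). They were the only calls among 19 glycolysis, 4 cell cycle and 10 stress genes. Ppp1r15a lost its call without SeV replicates 1 or 3 or replicate 3 of the pair (adjusted p = 0.0701, 0.211 and 0.185), with counts thinned (0.176) and with no filter (0.0561). Of 19 phagocyte genes, 2 fell: Clec4a2, an inhibitory lectin receptor, to 0.46 times SeV (adjusted p = 0.0245) and Msr1, a scavenger receptor, to 0.645 times SeV (adjusted p = 0.0302). Each lost its call without SeV replicates 1 or 3 or without replicates 1 or 3 of the pair, with adjusted p up to 0.231. Counts thinned (0.245 for Clec4a2 and 0.189 for Msr1) or no filter (0.0751 and 0.125) ended these calls as well. The lists of class I and class II antigen presentation, cell death, cholesterol synthesis and ribosomal proteins (16, 8, 18, 15 and 32 genes) had 0 calls against SeV by edgeR and by DESeq2, with 2, 1, 2, 1 and 1 genes at an unadjusted p under 0.05. The shares called on all these lists stand beside 2.12% of all genes.

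Several genes outside the lists moved as far or further. They were chosen after their values were seen. Hopx, which encodes a small homeodomain protein, had 66.9, 92.0 and 113 CPM with SeV, 871, 502 and 632 with cGAMP and 564, 587 and 587 with the pair, 6.06-fold over SeV (adjusted p = 4.71e-12, edgeR). Rgcc, a regulator of the cell cycle, stood at 66.9, 38.3 and 42.2 CPM with SeV and at 286, 356 and 344 with the pair, 6.99-fold higher (adjusted p = 2.17e-10). In both genes the pair overlapped cGAMP and SeV was apart. Tnfsf15, a ligand of the TNF family, rose 3.27-fold (adjusted p = 1.84e-07), and Pabpc1, which binds the poly(A) tail of messages, 2.29-fold (adjusted p = 7.06e-12). Sirpa, the receptor for the CD47 signal on target cells, fell to 0.564 times SeV (adjusted p = 0.000588), from 737 ± 115 to 411 ± 17.9 CPM (SD, n = 3), beside 399 ± 61.2 with cGAMP, a call lost with counts thinned (edgeR adjusted p = 0.0924). Ccl3, Ccl4, Ccl5, Tnf, Oasl1, Hk2, Pcna, Hopx, Rgcc, Tnfsf15 and Pabpc1 kept their call in all 13 alternatives run on this comparison.

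The 2 genes higher in the pair than with cGAMP were Cxcl9 and Slco3a1, also named after their values were seen. Cxcl9, a chemokine for activated T cells that interferon gamma is best known to induce, had 422, 456 and 540 CPM with cGAMP, 698, 621 and 469 with SeV and 939, 865 and 847 with the pair. Every pair library was above every library of either single ligand. It was 1.85-fold above cGAMP (log2 0.88, SE 0.19, adjusted p = 0.0123, edgeR) and 1.51-fold above SeV (0.60, SE 0.19, adjusted p = 0.0622). Slco3a1, a transporter of the organic anion family, had 110, 76.0 and 49.1 CPM with cGAMP, 134, 130 and 108 with SeV and 215, 194 and 164 with the pair, 2.50-fold above cGAMP (adjusted p = 0.0123). Its pair libraries too were all above those of both single ligands. DESeq2 called neither (adjusted p = 0.215 for Cxcl9 and 0.141 for Slco3a1), nor did edgeR with counts thinned (0.492 and 0.903), and with no filter Slco3a1 was at 0.0554. Leaving out any 1 library of cGAMP or of the pair ended the call of Cxcl9 (adjusted p from 0.0567 to 0.522), and leaving out cGAMP replicates 2 or 3 or replicates 1 or 2 of the pair ended that of Slco3a1 (0.0996 to 0.734).

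The 300 bases from 250 before to 50 after the start are shown for the chemokine genes Cxcl9, Cxcl10 and Ccl3. Pair libraries of Cxcl9 were above every library of both single ligands. Those of Cxcl10 and of Ccl3 were above every SeV library and overlapped the range with cGAMP. The sequences come from RefSeq (GRCm38.p6), 5′ to 3′ on the gene's strand, the minus strand in each: Cxcl9 chr5:92328030-92328329, Cxcl10 chr5:92348840-92349139 and Ccl3 chr11:83649329-83649628. Capitals mark matches on either strand to a core of the interferon-stimulated response element (GAAANNGAA), an NF-kB motif (GGGANTTTC) and an AP-1 motif (TGANTCA). Only these letters were searched, so sites of another form, NF-kB sites among them, are neither marked nor counted.
Cxcl9: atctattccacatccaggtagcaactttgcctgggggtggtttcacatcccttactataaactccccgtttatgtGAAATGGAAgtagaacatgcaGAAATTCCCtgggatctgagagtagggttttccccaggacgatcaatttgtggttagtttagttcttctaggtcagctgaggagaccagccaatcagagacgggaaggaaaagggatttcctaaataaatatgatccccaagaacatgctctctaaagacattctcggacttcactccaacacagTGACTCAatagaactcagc
Cxcl10: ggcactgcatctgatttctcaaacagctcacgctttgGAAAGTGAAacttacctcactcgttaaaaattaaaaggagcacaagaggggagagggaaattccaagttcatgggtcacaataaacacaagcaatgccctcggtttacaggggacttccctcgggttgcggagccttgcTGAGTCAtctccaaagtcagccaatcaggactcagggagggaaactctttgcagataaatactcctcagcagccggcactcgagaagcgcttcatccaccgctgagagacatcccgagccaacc
Ccl3: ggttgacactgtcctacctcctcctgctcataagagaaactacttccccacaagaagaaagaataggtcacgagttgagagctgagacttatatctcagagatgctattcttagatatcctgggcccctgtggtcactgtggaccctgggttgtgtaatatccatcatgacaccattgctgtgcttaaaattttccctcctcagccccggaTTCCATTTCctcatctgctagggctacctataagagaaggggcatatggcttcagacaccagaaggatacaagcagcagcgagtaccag
Cxcl9 held 1 match to each motif, Cxcl10 1 to the response element core and 1 to the AP-1 motif, and Ccl3 1 to the response element core. Among 27025 promoters of this length the motifs were found in 9.76%, 1.29% and 8.97%. The response element core was in 6 of the 11 promoters at hand from the interferon-response list (54.5%) and in 7 of 60 from the genes that rose against SeV (11.7%), beside 10.4% of the 3614 from all tested genes. The AP-1 motif was in 3 of the 11 (27.3%) and 7 of the 60 (11.7%) beside 6.64%, and the NF-kB motif in 0 and 1 (1.67%) beside 1.47%. Among the 10 promoters at hand from genes that fell against SeV, 2 held the response element core (20%), 3 the AP-1 motif (30%) and 0 the NF-kB motif.

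Above both single ligands there were 0 genes and below both 0 (0% each), judged by the larger of the 2 p-values adjusted by Benjamini-Hochberg over 4720 genes after edgeR's quasi-likelihood test. At an unadjusted p under 0.05 there were 44 above and 26 below, and DESeq2 called 0 in each direction (28 and 25 unadjusted). The nearest to the threshold were chosen after their values were seen. After Cxcl9 came St3gal5, a ganglioside synthase, with means of 134 ± 27.4, 143 ± 29.0 and 250.2 ± 63.15 CPM for SeV, cGAMP and the pair (SD). Il1rn, which encodes the natural antagonist of the interleukin-1 receptor, had 1854, 1839 and 2064 CPM with SeV, 1990, 1975 and 2136 with cGAMP and 2666, 3051 and 2824 with the pair. In Il1rn all pair libraries lay above all others, and the pair was 1.48-fold above SeV and 1.40-fold above cGAMP. The larger p-values of Cxcl9, St3gal5 and Il1rn were 0.00144, 0.002385 and 0.003075 before adjustment, by edgeR. A fit on the 12 libraries of SeV, cGAMP, the pair and Ctrl alone, with fewer genes tested, called 2 genes above both, Il1rn and Ptx3.

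How far the pair could differ from cGAMP and go unseen depended on the level. The 95% interval of the log2 difference lay within a factor of 2 for 1854 of the 4720 genes (39.3%), and for 1456 of the 1726 genes that reached 100 CPM in a group (84.4%). For the rest, a difference of 2-fold was not excluded at this depth. Every library of the pair lay above every one of cGAMP in 257 genes (5.44%) and below in 242 (5.13%), and above every one of SeV in 471 (9.98%) and below in 375 (7.94%).

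SeV and cGAMP were then compared directly. With SeV, 13 genes were higher than with cGAMP (0.275%) and 63 lower (1.33%), 76 in all (1.61%). Higher with SeV were Cd300lb, an activating receptor of myeloid cells (65.3 ± 18.0 against 9.00 ± 2.78 CPM, adjusted p = 0.0117), the cytokine gene Il18 (67.8 ± 36.0 against 20.1 ± 3.84, adjusted p = 0.047), the monocyte chemokine receptor Ccr2 (153 ± 14.1 against 55.5 ± 12.7, adjusted p = 0.0367) and Fbrsl1 (144 ± 6.07 against 56.5 ± 16.3, adjusted p = 0.0364; SD, n = 3, edgeR). The pair had 19.8 ± 18.5, 24.9 ± 12.8, 68.1 ± 28.0 and 76.0 ± 32.4 CPM of them, and none was called against either single ligand. These 4 rest on few counts, 4 to 24 UMIs with cGAMP. Ccr2 lost its call without any 1 of the 6 libraries of SeV and cGAMP (edgeR adjusted p from 0.0639 to 0.307), Fbrsl1 without any 1 but cGAMP replicate 1 (0.0812 to 0.318) and Il18 without any 1 but SeV replicate 1 (0.116 to 0.292). Il18 was not called by DESeq2 either (adjusted p = 0.0571), and Cd300lb lost its call without SeV replicate 1 or cGAMP replicates 2 or 3 (edgeR adjusted p from 0.0607 to 0.106). With counts thinned all 4 lost the call (edgeR adjusted p from 0.262 to 0.74), and with no filter so did Il18 (0.116) and Fbrsl1 (0.0994). Over all genes, the SeV-high count was 5 to 9 with any 1 library left out and 34 when the 12 libraries were fitted alone.

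Genes lower with SeV than with cGAMP included Bambi, a decoy receptor that dampens TGF-beta signals, which had 0 UMIs in the 3 SeV libraries, 23 with cGAMP and 35 with the pair. Its level in the pair (67.4 ± 38.3 CPM, SD, n = 3) was at least 10.1-fold higher than with SeV, taking 3 counts over the SeV group as the floor (adjusted p = 1.05e-05, edgeR). Plagl1, a zinc finger transcription factor, had 0 UMIs in SeV and in Ctrl and 12 each with cGAMP and with the pair, at least 3.73-fold higher than SeV. Its call against SeV (adjusted p = 0.0207, edgeR) was lost without any 1 of the SeV libraries and without replicate 2 of the pair, with an adjusted p up to 0.421 over the alternatives. Slc37a3, a transporter, had 9.56, 0 and 9.38 CPM with SeV, 82.5, 70.1 and 61.4 with cGAMP and 80.5, 47.2 and 67.8 with the pair, 8.62-fold over SeV (adjusted p = 0.0106, edgeR). That call rests on 3 UMIs with SeV and was lost without SeV replicates 2 or 3 and without replicate 1 of the pair (adjusted p up to 0.421 over the alternatives). The count of genes lower with SeV was 36 without SeV replicate 3 and 39 without cGAMP replicate 3. Dtnb, a dystrobrevin, had 40.3 ± 13.0 CPM with cGAMP, 1.56 ± 2.71 with SeV and 15.1 ± 4.03 with the pair, and was not called in the pair against either. Its call between SeV and cGAMP was lost without SeV replicates 1 or 2 or cGAMP replicate 1 (edgeR adjusted p from 0.0569 to 0.0793). The call of Plagl1 between SeV and cGAMP was lost without any 1 library but cGAMP replicate 2 (0.0553 to 0.204), and that of Slc37a3 without SeV replicates 2 or 3 (0.0738 and 0.0593). With counts thinned, Bambi, Plagl1, Slc37a3 and Dtnb all lost that call (edgeR adjusted p from 0.255 to 0.392).

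Against Ctrl, at an adjusted p under 0.05 and a fold of at least 2, 737 genes changed with SeV (15.6%), 830 with cGAMP (17.6%) and 1008 with the pair (21.4%). Without the fold these were 917 (19.4%), 1023 (21.7%) and 1239 (26.2%). Whether the effects of the ligands add up on the log2 scale was tested as the interaction, in which the effects of SeV and of cGAMP over Ctrl are taken from that of the pair. It was negative, so that the pair fell short of the sum, in 366 genes (7.75%) and positive in 90 (1.91%), 456 in all (9.66%). All 15 interferon-response genes had a negative interaction, with a median of -3.83 beside 0.05 over all genes. Where the pair stays near cGAMP, the interaction is the SeV effect over Ctrl with its sign turned. On this list the medians were 0.06 for the pair against cGAMP and 3.83 for SeV against Ctrl. The negative values are thus no separate result for this list. Phf11a, Ccl12 and Ddx60 had the most negative fitted values. Each had 0 UMIs in Ctrl, so the size of the value, and with it this rank, is not measured. The 3 ligand groups had near-equal means (SeV, cGAMP and the pair). These were 154, 149 and 126 CPM for Phf11a, 147, 130 and 166 for Ccl12 and 87.3, 85.1 and 80.2 for Ddx60. The pair exceeded a floor of 3 counts in the Ctrl group at least 10.8-, 14.2- and 6.86-fold.

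Amz1 and Lyl1 had the largest positive fitted interactions, though Amz1 had 0 UMIs with SeV, so the size of its value is not measured. Both had fewer UMIs with each ligand alone than in Ctrl, and more in the pair than with either ligand alone. No test of these differences is given here. Lyl1, a transcription factor of blood progenitors, had 53.8 CPM in Ctrl, 4.75 with SeV, 1.95 with cGAMP and 15.5 with the pair, from 14, 2, 1 and 8 UMIs (interaction adjusted p = 0.00404, edgeR). Amz1, a metalloprotease gene, had 8, 0, 1 and 4 UMIs in the same order (adjusted p = 0.0162). Without replicate 2 of the pair both lost the call (edgeR adjusted p = 0.0741 for Lyl1 and 0.222 for Amz1), and Amz1 also lost it without SeV replicate 3 (0.0572) and with counts thinned (0.179). The 90 positive interactions became 159 with library size alone, which moved the median interaction from 0.05 to 0.19, so that 33.2% in place of 19.7% of the interactions called were positive. They numbered 37 to 65 with any 1 of the 12 libraries left out.

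The same step was measured again in libraries that share none with the 9, where the same further ligand X was present in every group compared. Adding cGAMP to X+SeV changed 210 genes with HMW as X, 317 with PAM, 191 with LPS, 271 with Zymosan and 230 with CpGB. Rises were 3.18%, 4.05%, 2.35%, 3.96% and 3.07% of the genes tested and falls 1.27%, 2.67%, 1.69%, 1.78% and 1.8%. Adding SeV to X+cGAMP changed 17 genes with HMW (0.36% higher, 0% lower), 1 with Zymosan (0.0212% lower, Insig1, a sterol sensor) and 0 with PAM, LPS and CpGB by edgeR and by DESeq2, where 108 higher and 98 lower genes with PAM, 84 and 108 with LPS and 102 and 160 with CpGB had an unadjusted p under 0.05. In all 5 settings, as in the pair, more genes moved on adding cGAMP than on adding SeV.

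**Figure D4:**
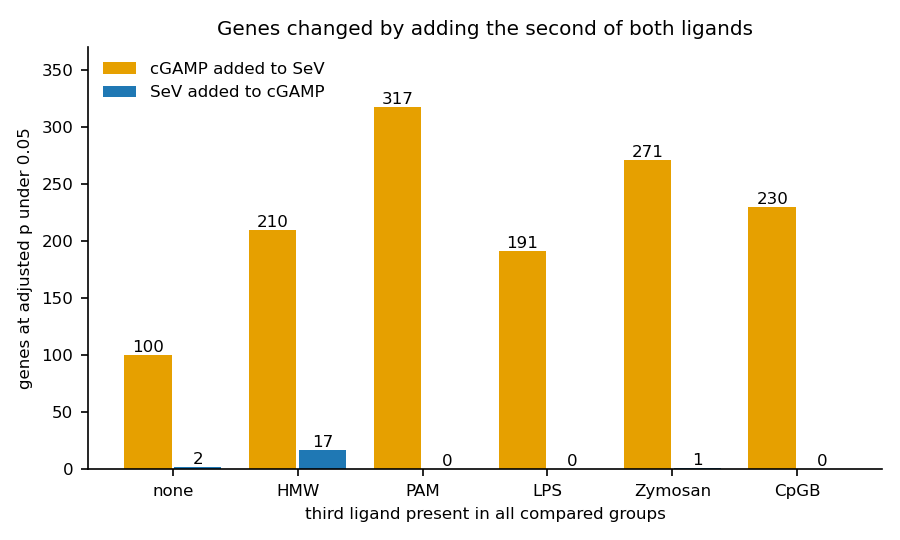
Bars give the number of genes at an adjusted p under 0.05 (edgeR, of 4720) when cGAMP was added to SeV (orange) and when SeV was added to cGAMP (blue), with no further ligand or with the one named under the bars. cGAMP moved 100 to 317 genes and SeV 0 to 17.

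Of the 84 that rose against SeV with no further ligand, 55 (65.5%) also rose with HMW, 58 (69%) with PAM, 38 (45.2%) with LPS, 52 (61.9%) with Zymosan and 50 (59.5%) with CpGB. These are 36.7%, 30.4%, 34.2%, 27.8% and 34.5% of the rises in each set. In all 5 sets 20 of the 84 rose, among them Ccl3, Ccl4, Oasl1, Hopx, Rgcc, Tnfsf15, Zfp36l2, Pabpc1 and Pcna, beside 0.508% of all genes, and 11 of the 84 rose in none, beside 91.6% of all genes. In the reverse direction 1 of the 84 was called, Id2, an inhibitor of helix-loop-helix transcription factors, which was lower in Zymosan+SeV+cGAMP than in Zymosan+SeV (-0.54 log2 units, adjusted p = 0.00563, edgeR) and was named after its value was seen. Ccl5 rose in 4 and missed with LPS (0.29 log2 units, adjusted p = 0.316, edgeR). Of the 16 that fell, 6, 8, 5, 4 and 7 fell again, and Sirpa did so in all 5, with log2 differences of -0.70 to -1.11. Leaving out 1 library moved these totals by over 1.5 times in 4 sets. The HMW total of 210 was 92 without replicate 1 of HMW+SeV+cGAMP and 128 and 138 without replicates 2 and 3 of HMW+SeV. The PAM total was 202 without replicate 1 of PAM+SeV and the Zymosan total 117 without replicate 3 of Zymosan+SeV. The LPS total was 120 and 111 without replicates 2 and 3 of LPS+SeV, and 125 and 114 without replicates 1 and 2 of LPS+SeV+cGAMP. Insig1 lost its call without replicate 2 of Zymosan+cGAMP or replicate 1 of Zymosan+SeV+cGAMP, and 11 genes were called without replicate 2 of the latter.

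Genes were also chosen in the HMW libraries alone and then read in the 9. The 50 genes at least 2-fold higher with HMW+cGAMP than with HMW+SeV (1.06% of those tested) had a median of 1.29 log2 units in the pair against SeV and 0.06 against cGAMP. Of them 25 were called higher than SeV and 0 fell, beside 1.78% and 0.339% of all genes. Against cGAMP 0 were called by edgeR or by DESeq2, with 3 higher and 2 lower at an unadjusted p under 0.05. The 12 genes at least 2-fold higher with HMW+SeV (0.254%), which include Socs1, had medians of -0.81 and -0.23, and 2 of them fell against SeV, beside the same 0.339%.

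**Figure D5:**
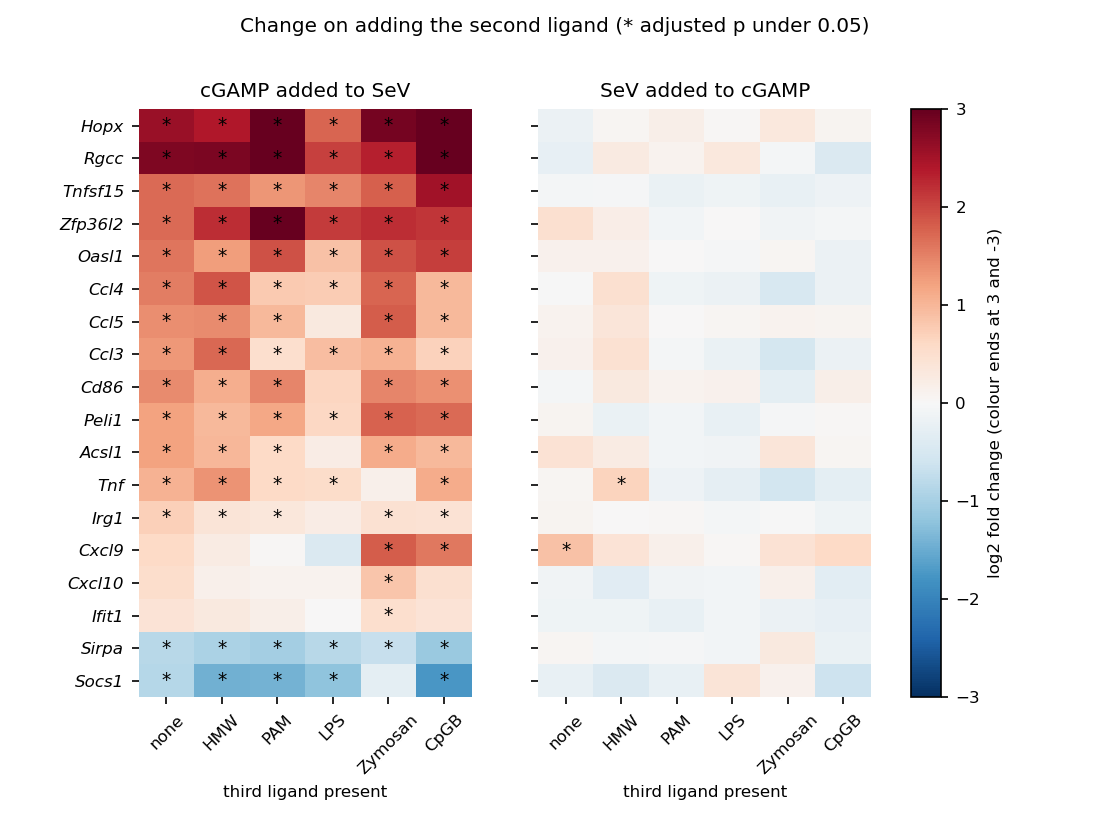
Colour gives the log2 fold change of 18 genes on adding cGAMP to SeV (left) and SeV to cGAMP (right), with no further ligand and with each of 5 (columns), and an asterisk marks an adjusted p under 0.05 by edgeR. Hopx, Rgcc, Tnfsf15, Zfp36l2, Oasl1, Ccl4, Ccl3 and Peli1 rose in every column on the left, and on the right the asterisks are Cxcl9 with no further ligand and Tnf with HMW.

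Cxcl9, higher than cGAMP in the pair, was not called against X+cGAMP in any of the 5 sets (log2 0.41 with HMW, 0.16 with PAM, 0.04 with LPS, 0.42 with Zymosan and 0.59 with CpGB, the smallest adjusted p being 0.558). Slco3a1 had differences of -0.11 to 0.02 log2 units there. Against X+SeV it rose with Zymosan and with CpGB. Above both 2-ligand groups there were 7 genes with HMW present (0.148%) and 0 with the other 4 ligands as X by edgeR and by DESeq2 (4 with HMW by DESeq2), where 28 with PAM, 20 with LPS, 36 with Zymosan and 29 with CpGB had a larger p under 0.05. Below both there were 0 in the 5 sets by either tool, with 55, 25, 33, 40 and 69 at an unadjusted p under 0.05 in the order HMW, PAM, LPS, Zymosan and CpGB.

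The 7 genes with HMW were Tnf, Il1rn, Il1a, Inhba, Srgn, Basp1 and F10. In Tnf the HMW+SeV+cGAMP libraries stood at 9705, 3938 and 3974 CPM, beside 3823, 3746 and 3336 with HMW+cGAMP. Il1rn had 5833, 3240 and 3238 CPM beside 2425, 2776 and 2200. Replicate 1 was far above the other 2 in each of the 7 genes, and without it 0 genes were above both and 0 of the 17 were called against HMW+cGAMP (19 and 37 without replicate 2, 15 and 27 without replicate 3, 4 above both without any HMW+SeV library, and 3, 3 and 1 without replicates 1, 2 and 3 of HMW+cGAMP). The difference between the steps with and without HMW was called in 0 genes by edgeR, with 223 for the step from cGAMP and 242 for that from SeV at an unadjusted p under 0.05.

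Other pairs of the series give the scale. Of the other 20 pairs, 4 likewise had 0 genes above and 0 below both single ligands, and the median was 42 genes above, with 111 at most. SeV changed 10 genes when added to LPS (0.212%), 66 on CpGB (1.4%), 495 on Zymosan (10.5%), 913 on HMW (19.3%) and 918 on PAM (19.4%), against 2 on cGAMP. cGAMP changed 226 genes on LPS (4.79%), 590 on CpGB (12.5%), 1206 on HMW (25.6%), 1253 on PAM (26.5%) and 1258 on Zymosan (26.7%), against 100 on SeV.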

How the data were processed

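RNA was measured in 64 groups of 3 libraries of mouse bone marrow-derived dendritic cells, and groups were taken from the sample labels. The deposited table holds whole-number UMI counts per gene for 23481 genes, which the authors did not normalize. BWA 0.7.15 and the mm10 build are named in the submitters' processing notes without their roles, and the counting rule and use of strand are not given in the sources used here.

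Genes were kept by filterByExpr (4720, with 95.7% of UMIs), libraries scaled by TMM, and 1 model of all 64 groups fitted with edgeR 4.0.16 in R 4.3.3, with 128 residual degrees of freedom. Contrasts were tested by edgeR's quasi-likelihood test and adjusted by Benjamini-Hochberg. A gene lay above or below both single ligands when the larger of its 2 p-values passed after adjustment. Intervals are 95%. The fit was tested on simulated data.

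Alternatives were DESeq2 1.42.0, RLE size factors, library size alone, no filter, a fold of at least 2, a replicate block, counts thinned to at most 61823 per library (smaller libraries of the sets with a further ligand, down to 46564, kept theirs), the compared groups alone, and each replicate left out. Named genes were the listed genes called, a few genes fixed by name, and the largest called differences and interactions. 1 gene that the rule gives is not reported here. Genes said to be chosen after their values were seen lie outside that rule. The members and the lists were chosen with earlier results of these data known. Deviations of same-numbered libraries correlated between -0.0438 and 0.0306, which at this depth cannot exclude a pairing. The main fit used no pairing. Symbols were matched to RefSeq GRCm38.p6 for 4468 of 4720 genes.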

Additional observations from a re-analysis of the deposited data

Results flagged for a closer look

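Effects of SeV and of cGAMP differed with the other ligand present, by the test of the interaction (edgeR's quasi-likelihood test, Benjamini-Hochberg adjusted), in 90 genes with a positive and 366 with a negative value. Among negative ones, Phf11a had an adjusted p of 2.35e-07, Ccl12 of 1.55e-05 and Ddx60 of 8.61e-05, each with 0 UMIs in Ctrl. Among positive ones, Amz1 had an adjusted p of 0.0162 and Lyl1 of 0.00404. Without replicate 2 of the pair neither passed (edgeR adjusted p = 0.222 for Amz1 and 0.0741 for Lyl1), nor did Amz1 without SeV replicate 3 (0.0572) or with counts thinned (0.179). All 12 libraries of SeV, cGAMP, the pair and Ctrl enter these values, and Amz1 and Lyl1 rest on 8 and 14 UMIs in Ctrl.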

How the results depend on the processing

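No called difference of the genes recomputed here changed direction under any alternative run. The pair against SeV had 84 genes higher (29 when thinned, 54 to 80 with 1 library left out) and 16 lower. The lower count was 5 with a fold of at least 2, 31 with library size alone, 7 with no filter, 4 when thinned, 45 with the compared groups alone and 5 to 11 with 1 library left out. With the compared groups alone 67.4% of the calls were rises. Against cGAMP the 2 higher genes became 1 with a fold of at least 2, 1 with no filter, 0 with DESeq2, 0 when thinned, 6 with the compared groups alone and 0 to 1 with 1 library left out, and the 0 lower became 1 (Tmem37) with the compared groups alone. SeV against cGAMP had 13 higher, which became 6 with a fold of at least 2, 7 with no filter, 6 when thinned, 34 with the compared groups alone (31.8% of its calls, beside 17.1%) and 5 to 9 with 1 library left out, and 63 lower, which became 26 when thinned and 36 to 56. The 90 positive interactions became 159 with library size alone, 26 with no filter (6.57% of the calls), 42 when thinned, 166 with the compared groups alone (31.7%) and 37 to 65, and the 366 negative ones 325 to 410. Genes above both single ligands were 0 and became 2 with the compared groups alone.

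With HMW, the 7 genes above both became 2 with a fold of at least 2, 4 with RLE, 4 with library size alone, 4 with DESeq2, 11 with the replicate block, 2 when thinned, 3 with the compared groups alone and 0 to 19. Below both, the 0 became 1 with PAM, 2 with LPS and 2 with CpGB in the compared groups alone, 1 with Zymosan and 2 with CpGB with no filter, and 0 to 1 with Zymosan with 1 library left out. Calls against X+SeV were 130, 181, 108, 164 and 144 with a fold of at least 2 and 74, 95, 46, 100 and 83 when thinned (HMW, PAM, LPS, Zymosan, CpGB), and 92 to 198, 202 to 253, 111 to 146, 117 to 233 and 163 to 189 with 1 library left out. Calls against X+cGAMP with HMW were 6 with a fold of at least 2, 6 when thinned, 6 with the compared groups alone and 0 to 37. They were 1 with PAM and 8 with LPS in the compared groups alone, 3 with no filter, 2 when thinned and 0 to 11 with Zymosan, and 3 with no filter, 2 with the replicate block, 2 with the compared groups alone and 0 to 2 with CpGB. The cause of these shifts was not tested, beyond the fewer genes, counts or libraries that an alternative holds.

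Same-numbered libraries did not deviate together, but at this depth counting noise could hide a pairing, so a pairing is not excluded. With the replicate block the pair against SeV had 89 higher and 21 lower, all 100 calls among them, SeV against cGAMP 14 and 66, and the interaction 98 and 372. At this depth a 2-fold difference between the pair and cGAMP was not excluded for most genes under 100 CPM.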
